A study of Mus musculus with 6 samples.

Results

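The mitochondrial genome transcripts are the 37 genes carried by the mitochondrial chromosome (chromosome M) itself, and they were followed in mouse hematopoietic stem cells with and without Emp1. They were taken as every row of the deposited gene table whose identifier GENCODE pairs with a symbol that begins with mt-. These were 37 of 55401 rows, made up of 13 protein-coding, 2 ribosomal RNA (rRNA) and 22 transfer RNA (tRNA) genes, and the 3 classes are described apart. RNA came from bone marrow cells sorted as CD48-CD150+LSK, where LSK stands for lack of lineage markers with Sca-1 and c-Kit present. The 3 control samples were Emp1fl/fl, with floxed Emp1 alleles and no Cre named, and the 3 Emp1-deficient samples were Emp1fl/fl,Tie2-Cre, so that both genotypes carry the floxed alleles. The Tie2 promoter that drives Cre is active in endothelial cells as well as in blood-forming cells, and the labels give no age, sex or pooling of the mice. Values are FPKM, fragment numbers scaled to transcript length and to library size.

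The mitochondrial chromosome is copied and read inside the mitochondrion. Each strand is transcribed by the RNA polymerase Polrmt into long precursors, from which the tRNAs that lie between most of the other genes are cut out, freeing the messenger and ribosomal RNAs. The 13 proteins are all subunits of the respiratory chain or of the ATP synthase: mt-Nd1 to mt-Nd6 and mt-Nd4l belong to complex I, mt-Cytb to complex III, mt-Co1 to mt-Co3 to complex IV and mt-Atp6 and mt-Atp8 to complex V. The 2 rRNAs and 22 tRNAs serve the translation of those messengers alone, and every protein that copies, transcribes, processes or translates this genome is made from nuclear genes. Hematopoietic stem cells are known for relying little on oxidative phosphorylation at rest.

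Some of the sequences decide how reads can be assigned to these genes, and they are shown for that reason, from GENCODE M21 transcripts on GRCm38 (the assembly that mm10 denotes), each written 5′ to 3′ on the gene's own strand. The end of mt-Atp8 and the start of mt-Atp6 (chrM:7900-7969 and chrM:7927-7996, plus strand) share 43 bases, in capitals, as both proteins are read from a single messenger.
mt-Atp8 end: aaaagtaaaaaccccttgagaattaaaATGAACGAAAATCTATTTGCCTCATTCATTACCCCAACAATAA
mt-Atp6 start: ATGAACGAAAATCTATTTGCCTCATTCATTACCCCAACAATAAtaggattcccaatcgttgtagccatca
The same holds for mt-Nd4l and mt-Nd4 (chrM:10144-10173 and chrM:10167-10196, plus strand), whose shared bases, 7 in number, are again in capitals.
mt-Nd4l end: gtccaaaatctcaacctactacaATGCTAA
mt-Nd4 start: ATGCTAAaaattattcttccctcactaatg
Of the 13 protein-coding genes, 3 end on 1 base beyond their whole codons, the T in capitals, which becomes a stop codon when the poly(A) tail is added (mt-Co3 at chrM:9361-9390, mt-Nd4 at chrM:11515-11544 and mt-Cytb at chrM:15259-15288, plus strand).
mt-Co3 end: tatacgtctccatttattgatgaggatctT
mt-Nd4 end: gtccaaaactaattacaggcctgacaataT
mt-Cytb end: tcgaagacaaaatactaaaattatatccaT

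A stretch of the nuclear genome repeats part of this chromosome almost letter for letter. On the minus strand of chromosome 1, between 24611535 and 24616197, 7 unprocessed pseudogenes in the mitochondrial gene order matched mt-Co1 (its last 483 bases), mt-Co2, mt-Atp6, mt-Co3, mt-Nd3, mt-Nd4l and mt-Nd4 (876 bases). Of these, 5 were 100% identical over the aligned bases, and the other two differed at 1 base each. Counted from 1 at the first base of the mitochondrial gene, with its base first, these were T3C in Gm28438 against mt-Nd3 and A1066T in Gm29216 against mt-Co1. The starts of mt-Nd3 (chrM:9459-9518, plus strand) and Gm28438 (chr1:24613060-24613119, minus strand) are shown with the differing base in capitals.
mt-Nd3 start: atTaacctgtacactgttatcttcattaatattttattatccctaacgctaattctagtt
Gm28438 start: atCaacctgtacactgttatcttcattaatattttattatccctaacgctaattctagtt
A read from an identical stretch carries no mark of its origin, whereas reads from the parts of mt-Co1 and mt-Nd4 that no copy covers, or over a differing base, do. For that reason the mitochondrial rows are given below both as deposited and with the chromosome 1 copy added. Adding the copies was decided after the values had been seen. Another 4 nuclear pseudogenes matched mt-Nd5, mt-Co2, mt-Co1 and mt-Nd2 at 95.2% to 97.6% identity (Gm4076, Gm13341, Gm13340 and Gm13339), and none exceeded 1.27 FPKM in any library.

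The libraries were of similar make-up, with Emp1-deficient replicate 3 standing apart in several measures. Emp1 itself stood at 3.25, 2.64 and 4.32 FPKM across the controls, against 0.58, 0.70 and 0.27 FPKM across the Emp1-deficient libraries, with every Emp1-deficient value below every control (log2 difference -1.53, SE 0.25, limma adjusted p = 0.0577). Emp1 reached 1 FPKM in the controls only, so it entered the fit through its higher group, which limits what that p can support. The floxed exons are not named in the labels, and the row covers the whole gene, so exons that were not deleted may contribute to it. All 12 hematopoietic stem cell markers averaged at least 1 FPKM, with a summed level of 1291 to 1453 FPKM in controls and 1019 to 1445 FPKM in Emp1-deficient libraries. Of the 12, 10 had a log2 difference below 0, beside 56.9% of all genes, and the median was -0.13. With limma p under 0.05 before adjustment, 2 stood lower and 1 higher, beside 9.72% and 6.5% of all genes. Cd48, which the sort selects against, ran from 26.1 to 49.6 FPKM in controls and from 22.9 to 47.3 FPKM in Emp1-deficient libraries. Emp1-deficient replicate 3 was the deepest, since 1 fragment on a gene of 1000 bp was worth 0.0520 FPKM there and 0.0929 to 0.122 FPKM in the other libraries. It had the fewest genes at 1 FPKM (14334), and cytosolic ribosomal protein genes took 9.46% of its FPKM, below the 11.2% to 13.1% of the rest.

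Transcripts of the 13 protein-coding genes took a larger share of the library in each Emp1-deficient sample than in any control. The share was 3.69%, 4.48% and 4.18% of all FPKM in control replicates 1, 2 and 3, and 5.39%, 5.13% and 6.78% in Emp1-deficient replicates 1, 2 and 3. Weighted by transcript length instead, which stands closer to a share of reads, the means were 1.04% ± 0.0867 and 1.42% ± 0.188 (SD, n = 3 each). With the chromosome 1 copies added, the FPKM share was 5.24%, 6.33% and 5.98% in controls and 7.50%, 7.29% and 9.34% in Emp1-deficient libraries. The copies alone went from 1.74% ± 0.159 to 2.28% ± 0.248 (SD, n = 3 each). The difference in mean share of the 13 genes was 1.65 percentage points, and 1.15 points without Emp1-deficient replicate 3. In such bulk samples, a larger proportion of cells rich in these transcripts and more of this RNA per cell cannot be told apart.

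No single protein-coding gene passed the test after adjustment over all genes. Of the 13, 0 were called (limma, Benjamini-Hochberg adjusted p under 0.05), where 0.159% of the 15723 genes tested were called higher and 0.108% lower. Before adjustment, 8 of 13 had a p under 0.05 and stood higher and 0 stood lower, beside 6.5% of all genes higher and 9.72% lower. In 9 of 13 every Emp1-deficient library lay above every control, beside 8.91% of all genes. Of the 86 genes averaging at least 1000 FPKM the share was 25.6%, but these include members and chromosome 1 copies that did not overlap. All 13 fitted log2 differences were above 0 on the deposited scale, beside 43.1% of all genes, but that of mt-Co1 was -0.19 after quantile normalization and that of mt-Nd3 was below 0 under 3 of 4 other scalings. The median log2 difference was 0.33, against -0.046 over all genes tested. All 13 passed the filter on low values in both genotypes, so none entered through its higher group.

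**Figure D1:**
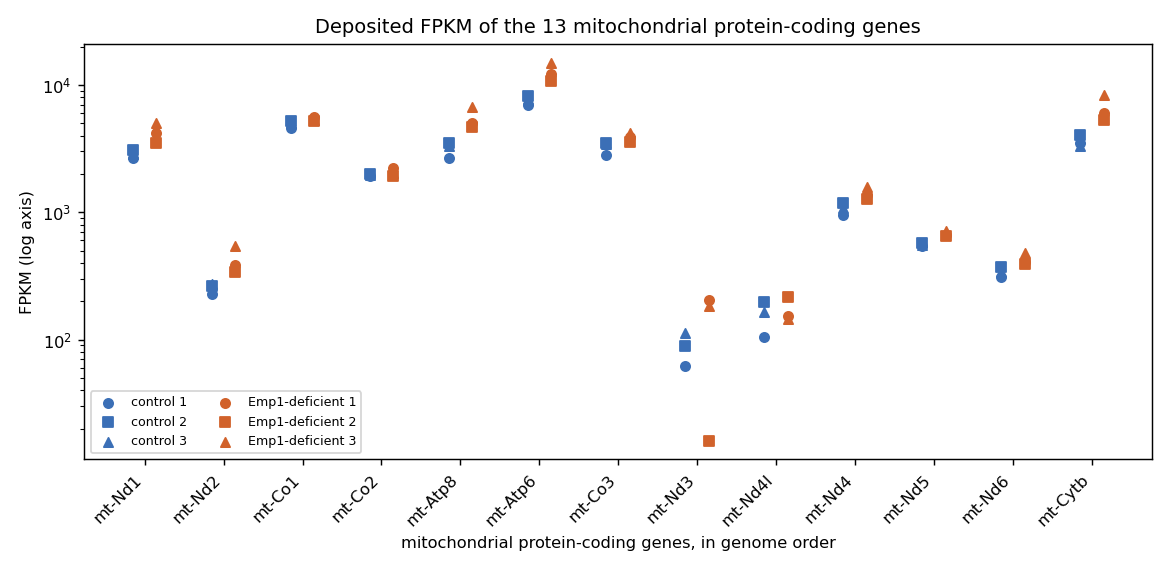
Deposited FPKM (log axis) of the 13 mitochondrial protein-coding genes in genome order, with 1 point per library, controls in blue and Emp1-deficient libraries in orange, and the shape giving the replicate number. The Emp1-deficient points lie above all controls in 9 genes, and mt-Nd3 ranges from 16.1 to 206 FPKM within the Emp1-deficient libraries.

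The messenger of complex III showed the widest fitted difference among the 13. mt-Cytb (ENSMUSG00000064370, chromosome M, 14145 to 15288, plus strand) encodes cytochrome b, the catalytic core of the complex that passes electrons to cytochrome c. It stood at 3482, 4028 and 3324 FPKM in control replicates 1, 2 and 3 and at 6062, 5267 and 8283 FPKM in Emp1-deficient replicates 1, 2 and 3. All Emp1-deficient values exceeded all controls, and the highest was replicate 3. The means were 3611 ± 369 and 6537 ± 1564 FPKM (SD, n = 3 each), a log2 difference of 0.83 (SE 0.18, limma adjusted p = 0.0899). When testing was limited to protein-coding genes of 400 bp or more, the adjusted p was 0.0435, over alternatives that ranged from there to 0.292. Without Emp1-deficient replicate 3 the log2 difference was 0.65.

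Both ATP synthase subunits stood higher, and by similar amounts. mt-Atp6 (ENSMUSG00000064357, chromosome M, 7927 to 8607, plus strand) encodes the subunit a that forms the proton path through the membrane, and it was the most abundant of the 37 rows. It stood at 6979, 8227 and 7711 FPKM across the controls, against 12095, 10817 and 14894 FPKM across the Emp1-deficient libraries, again without overlap. The log2 difference was 0.71 (SE 0.16, limma adjusted p = 0.0944). mt-Atp8 (ENSMUSG00000064356, chromosome M, 7766 to 7969, plus strand), a small subunit of the membrane part, stood at 2671, 3519 and 3287 FPKM across the controls, against 5036, 4669 and 6739 FPKM across the Emp1-deficient libraries. Its groups did not overlap either (0.79, SE 0.18, limma adjusted p = 0.0944). The ratio of mt-Atp8 to mt-Atp6 in FPKM was 0.383, 0.428 and 0.426 in controls and 0.416, 0.432 and 0.452 in Emp1-deficient libraries. These ratios, from the rows as deposited, overlapped between genotypes, while the levels of both genes did not. With its chromosome 1 copy Gm10925 added, mt-Atp6 stood at 9036, 10915 and 10065 FPKM across the controls. In the Emp1-deficient libraries that sum was 15101, 14104 and 19394 FPKM. The ratio of mt-Atp8 to that sum was higher in each Emp1-deficient library than in any control, by a narrow margin. That sum holds a copy, whereas mt-Atp8 had no listed copy to add, so the ratio sets unlike quantities side by side.

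Among the complex I subunits, 5 of 7 had Emp1-deficient values above every control, beside 8.91% of all genes, and the 2 that did not were the short genes mt-Nd3 and mt-Nd4l. mt-Nd1 (ENSMUSG00000064341, chromosome M, 2751 to 3707, plus strand), a subunit of the membrane arm at the site of quinone binding, stood at 2678, 3098 and 2868 FPKM across the controls, against 4192, 3513 and 5006 FPKM across the Emp1-deficient libraries. Its log2 difference was 0.54 (SE 0.15, limma adjusted p = 0.146). mt-Nd2 (ENSMUSG00000064345, chromosome M, 3914 to 4951, plus strand), a proton-pumping subunit, stood at 228, 264 and 273 FPKM and at 387, 341 and 544 FPKM (log2 difference 0.71, SE 0.17, limma adjusted p = 0.108). Emp1-deficient replicate 3 was again the highest and replicate 2 the lowest of its group for both. The ratio of mt-Nd2 to mt-Nd1 in FPKM overlapped between genotypes, at 0.0851 to 0.0953 in controls and 0.0924 to 0.109 in Emp1-deficient libraries.

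The complex I subunits mt-Nd4, mt-Nd5 and mt-Nd6 had smaller log2 differences and standard errors than mt-Nd1 and mt-Nd2. mt-Nd4 (ENSMUSG00000064363, chromosome M, 10167 to 11544, plus strand) averaged 1066 ± 113 and 1400 ± 167 FPKM (SD, n = 3 each; log2 difference 0.39, SE 0.13, limma adjusted p = 0.209). mt-Nd5 (ENSMUSG00000064367, chromosome M, 11742 to 13565, plus strand) had the smallest standard error of the 13, with 542, 575 and 556 FPKM across the controls and 663, 647 and 706 FPKM across the Emp1-deficient libraries. Its groups stood apart at a small difference of 0.27 (SE 0.10, limma adjusted p = 0.237). mt-Nd6 (ENSMUSG00000064368, chromosome M, 13552 to 14070, minus strand) is the only messenger encoded on the opposite strand and shares 14 bases with the end of mt-Nd5. It stood at 308, 370 and 341 FPKM across the controls, against 408, 395 and 480 FPKM across the Emp1-deficient libraries (log2 difference 0.33, SE 0.12, limma adjusted p = 0.224). The ratio of mt-Nd6 to mt-Nd5 was 0.569 to 0.643 in controls and 0.611 to 0.680 in Emp1-deficient libraries, overlapping between genotypes. The labels do not say that counting used strand, and reads from mt-Nd6 and from RNA of the other strand across it cannot then be told apart.

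The complex IV subunits were abundant, and none of the 3 had an unadjusted p under 0.05. mt-Co1 (ENSMUSG00000064351, chromosome M, 5328 to 6872, plus strand), the catalytic subunit of cytochrome c oxidase, stood at 4570, 5200 and 5009 FPKM across the controls, against 5605, 5189 and 5308 FPKM across the Emp1-deficient libraries. These groups overlapped (log2 difference 0.13, SE 0.12, limma adjusted p = 0.681). mt-Co2 (ENSMUSG00000064354, chromosome M, 7013 to 7696, plus strand), which receives electrons from cytochrome c, averaged 1967 ± 39.9 and 2058 ± 145 FPKM (SD, n = 3 each; log2 difference 0.06, SE 0.11, limma adjusted p = 0.845). mt-Co3 (ENSMUSG00000064358, chromosome M, 8607 to 9390, plus strand) stood at 2814, 3479 and 3446 FPKM across the controls, against 3916, 3542 and 4166 FPKM across the Emp1-deficient libraries. Its groups did not overlap, though Emp1-deficient replicate 2 was close to the highest control (log2 difference 0.26, SE 0.14, limma adjusted p = 0.404).

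The 7 chromosome 1 copies held a large part of the FPKM of some genes and almost none of others. Shares of each pair of gene and copy were taken from FPKM times annotated length, not from FPKM alone. Across the 6 libraries Gm10222 held 88.2% to 93.6% of the mt-Nd4l pair and Gm28661 44.8% to 52.5% of the mt-Co2 pair. Gm28437 held 31.4% to 34.9% of the mt-Co3 pair and Gm10925 20.0% to 24.7% of the mt-Atp6 pair. Gm29216 held 22.4% to 32.2% of the mt-Co1 pair. Gm28439 held 0.383% to 0.771% of the mt-Nd4 pair, although it is identical to mt-Nd4 over its whole 876 bases. The row for mt-Nd3 was the least steady: Gm28438 held 82.2%, 76.9% and 74.5% of the pair in controls and 56.4%, 96.1% and 55.2% in Emp1-deficient libraries.

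Taken as deposited, mt-Nd3 and mt-Nd4l were erratic, and with their copies added they were not. mt-Nd3 (ENSMUSG00000064360, chromosome M, 9459 to 9806, plus strand), a membrane subunit of complex I, stood at 62.0, 89.4 and 112 FPKM across the controls, against 206, 16.1 and 183 FPKM across the Emp1-deficient libraries. Its log2 difference was 0.0064 with an SE of 1.17 (limma adjusted p = 0.999), and Emp1-deficient replicate 2 decided its size, since it was 1.18 without that library. Gm28438 had its highest value in the same library, 397 FPKM, against 228 to 330 FPKM elsewhere. Summed by effective length, mt-Nd3 and its copy stood at 341, 380 and 434 FPKM across the controls, against 466, 400 and 405 FPKM across the Emp1-deficient libraries, which overlapped (0.14, SE 0.12, limma adjusted p = 0.637). For mt-Nd4l (ENSMUSG00000065947, chromosome M, 9877 to 10173, plus strand), another complex I membrane subunit, the row alone averaged 156 ± 47.0 and 171 ± 38.3 FPKM (SD, n = 3 each; log2 difference 0.16, SE 0.26, limma adjusted p = 0.828). With Gm10222 added it averaged 1730 ± 192 and 1928 ± 220 FPKM, and the groups still overlapped (0.16, SE 0.14, limma adjusted p = 0.644).

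**Figure D2:**
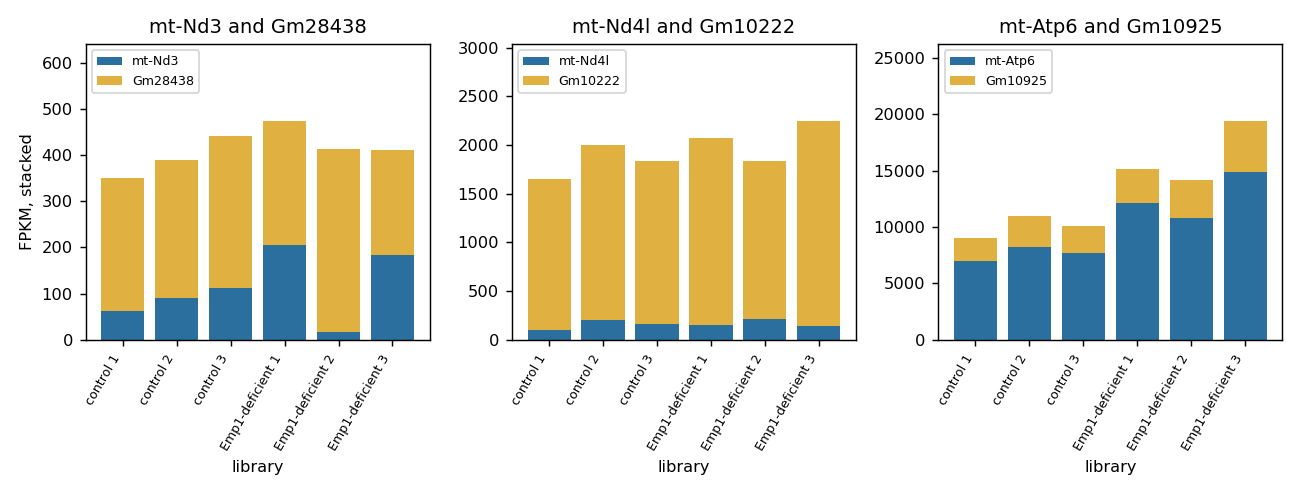
FPKM of 3 mitochondrial genes (blue) and of their near-identical chromosome 1 copies (yellow), stacked for each of the 6 libraries, each panel with its own linear axis from 0. The blue part of the mt-Nd3 bar nearly vanishes in Emp1-deficient replicate 2 (16.1 FPKM) while the whole bar stays level with the others, and most of each mt-Nd4l bar belongs to Gm10222.

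Adding the copies also separated the genotypes for 2 further genes. The sum of mt-Co1 and Gm29216 averaged 5816 ± 367 and 6691 ± 261 FPKM (SD, n = 3 each), without overlap. That of mt-Co2 and Gm28661 averaged 3809 ± 274 and 4295 ± 326 FPKM (SD, n = 3 each). Its groups barely separated, with the highest control at 3992 FPKM and the lowest Emp1-deficient library at 3997 FPKM. The log2 differences of the 2 sums were 0.20 and 0.17 (limma adjusted p = 0.479 and 0.569). With the copies, 11 of 13 genes did not overlap, beside 8.9% of all genes, 8 of 13 had an unadjusted p under 0.05, beside 6.49%, and 0 were called, beside 0.159%. The median log2 difference was again 0.33, with 0.14 as the lowest. Of the copies alone, Gm29216 stood furthest apart, at 4595, 4706 and 4743 FPKM across the controls, against 6746, 6649 and 7931 FPKM across the Emp1-deficient libraries (log2 difference 0.60, SE 0.13, limma adjusted p = 0.0895), while mt-Co1, whose end it matches, overlapped between genotypes. As deposited, the 5 genes that no copy covers (mt-Nd1, mt-Nd2, mt-Nd5, mt-Nd6 and mt-Cytb) had a median log2 difference of 0.54 and none overlapped, and the 7 with a copy had a median of 0.16 with 3 not overlapping. That difference between the 2 sets was not tested. mt-Atp8 (log2 difference 0.79) was in neither set. It had no listed copy of its own but shares 43 bases with mt-Atp6, which has one.

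**Figure D3:**
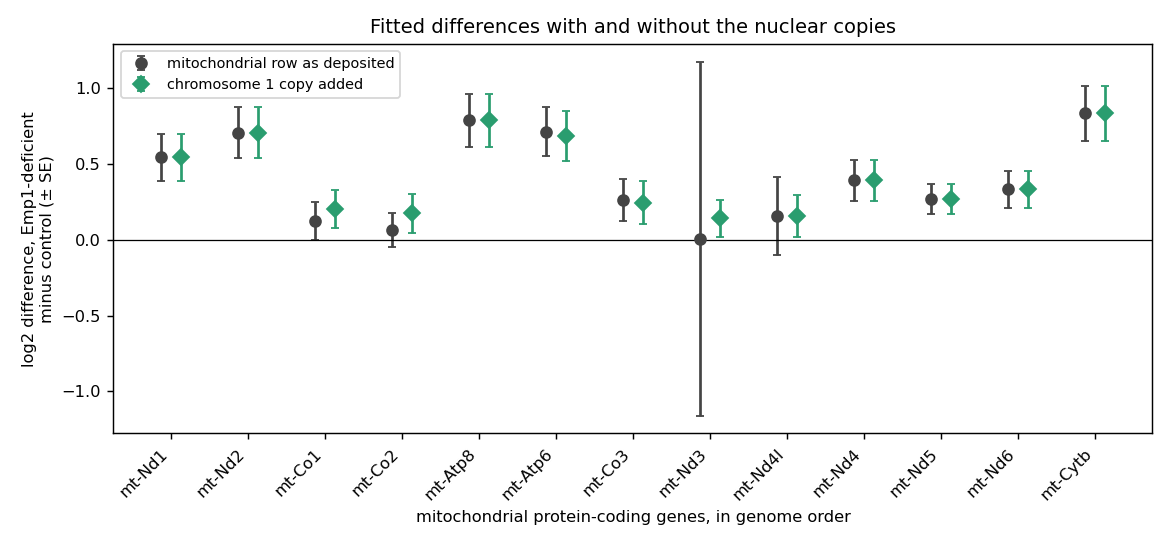
Fitted log2 difference, Emp1-deficient minus control, with its standard error, for the 13 protein-coding genes in genome order, as deposited (black circles) and with the chromosome 1 copy added (green diamonds). The mt-Nd3 bar shrinks from an SE of 1.17 to one of 0.12, and mt-Cytb, mt-Atp8, mt-Atp6 and mt-Nd2 lie highest at 0.83, 0.79, 0.71 and 0.71 as deposited.

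The proportions among the 13 genes, grouped by complex, differed between genotypes as well as their total. With copies added, complex IV genes held 37.6%, 36.9% and 38.8% of the summed FPKM of the 13 in controls and 32.9%, 32.8% and 27.5% in Emp1-deficient libraries. Complex V genes held 33.6%, 34.7% and 34.1% in controls and 37.9%, 39.0% and 41.9% in Emp1-deficient libraries. On the rows as deposited, complex IV held 34.1%, 33.2% and 34.6% in controls and 27.7%, 28.2% and 23.0% in Emp1-deficient libraries, and complex V 35.3%, 36.4% and 36.5% against 40.5%, 41.0% and 43.2%. Which complex held the larger part in controls thus depended on the copies, while neither share overlapped between genotypes on either scale. With copies added, complex III went from 9.38% ± 0.793 to 11.9% ± 1.22 and complex I from 18.7% ± 0.0945 to 17.4% ± 0.272 (SD, n = 3 each), and none of the 4 shares overlapped between genotypes. As these are parts of a whole, a larger part of any complex lowers the rest. In pairs of genes, mt-Cytb over mt-Co1 with copies added was 0.645, 0.661 and 0.558 in controls and 0.886, 0.824 and 1.21 in Emp1-deficient libraries. These are descriptions of the members, with no test.

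For the other messenger that carries a pair of genes, the ratio also depended on the chromosome 1 copies. With copies added, mt-Nd4l over mt-Nd4 was 1.60, 1.62 and 1.63 in controls and 1.43, 1.34 and 1.34 in Emp1-deficient libraries, with no overlap. Without the copies the ratio was 0.111 to 0.169 in controls and 0.0917 to 0.170 in Emp1-deficient libraries, which overlapped. Levels of genes as short as mt-Nd4l (297 bp), mt-Nd3 (348 bp) and mt-Atp8 (204 bp) rest on a strong length correction, so ratios between genes are less certain than the same ratio compared between libraries. Across the 13 genes, the log2 difference with copies added had a Pearson r of 0.44 with the A content of the transcript, -0.31 with GC content, -0.025 with transcript length, -0.066 with position on the chromosome and 0.17 with the log2 level in controls, as a description over genes that share libraries and precursors.

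The 2 rRNA genes did not share the direction of the messengers. mt-Rnr2 (ENSMUSG00000064339, chromosome M, 1094 to 2675, plus strand), the large ribosomal subunit's RNA, stood at 2627, 2171 and 2975 FPKM across the controls, against 2471, 1913 and 1322 FPKM across the Emp1-deficient libraries. The groups overlapped, with Emp1-deficient replicate 3 the lowest of all (log2 difference -0.48, SE 0.23, limma adjusted p = 0.345). Without that library the log2 difference was -0.24. mt-Rnr1 (ENSMUSG00000064337, chromosome M, 70 to 1024, plus strand), the RNA of the small subunit, stood at 139, 150 and 203 FPKM across the controls, against 173, 135 and 139 FPKM across the Emp1-deficient libraries, with overlap (-0.13, SE 0.16, limma adjusted p = 0.760). Its log2 difference was 0.036 without control replicate 3. Neither of the 2 rRNA genes was called, and 0 had an unadjusted p under 0.05, where 0.108% of all genes were called lower.

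Both rRNAs are cut from the start of the same precursor as mt-Nd1, yet their FPKM did not run with it. mt-Rnr2 over mt-Nd1 was 0.981, 0.701 and 1.04 in controls and 0.590, 0.545 and 0.264 in Emp1-deficient libraries, with no overlap. mt-Rnr2 over mt-Rnr1 was 18.9, 14.5 and 14.7 in controls and 14.3, 14.2 and 9.51 in Emp1-deficient libraries, although the ribosome holds the pair in equal number. Per the labels' protocols the messenger RNA was reverse-transcribed, so the protocol was not aimed at rRNA. A nuclear rRNA-like row, CT010467.1, named after its values were seen, stood at 19140, 12233 and 17116 FPKM across the controls, against 12732, 9633 and 4534 FPKM across the Emp1-deficient libraries. Like mt-Rnr2 it was lowest in Emp1-deficient replicate 3 and, among controls, in replicate 2, and its part in the result was not tested.

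**Figure D4:**
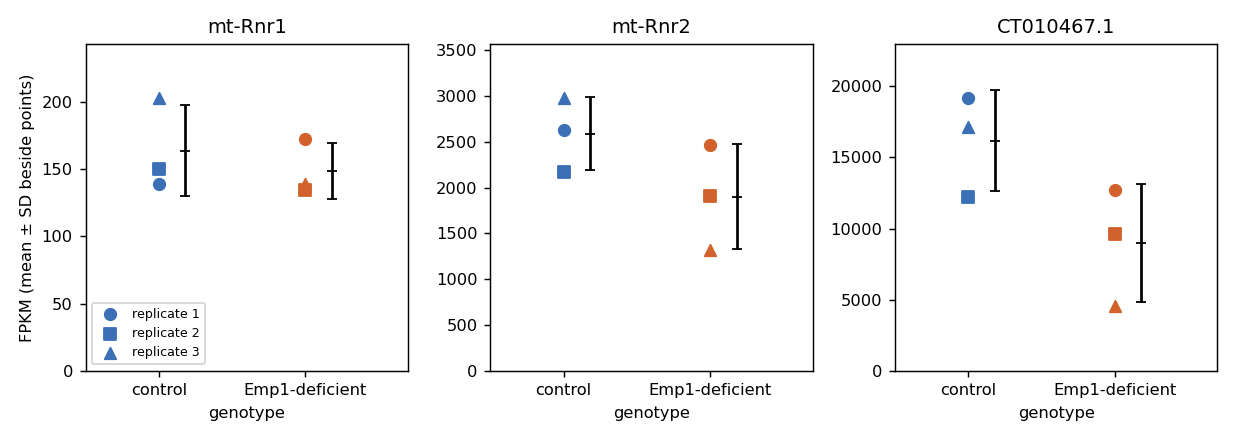
FPKM of the 2 mitochondrial rRNA genes and of the nuclear rRNA-like row CT010467.1 by genotype, with 1 point per library, and the mean ± SD (n = 3) beside the points, on linear axes from 0. mt-Rnr2 and CT010467.1 have their lowest point in Emp1-deficient replicate 3, at 1322 and 4534 FPKM, and the genotypes overlap in each panel.

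All 22 tRNA genes were listed at 0 FPKM in all 6 libraries, so none was tested and no comparison between genotypes could be made. The longest and the shortest are shown because length bears on that value: mt-Tl1 (chrM:2676-2750, plus strand), 75 bases, reads leucine codons, and mt-Ts2 (chrM:11613-11671, plus strand), 59 bases, reads serine codons.
mt-Tl1: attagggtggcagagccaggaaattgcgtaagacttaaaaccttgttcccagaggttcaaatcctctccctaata
mt-Ts2: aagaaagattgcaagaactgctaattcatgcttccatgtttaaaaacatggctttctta
In the whole table, the shortest gene with a value above 0 in any library was 74 bp long, and all 938 shorter genes were at 0, among them 21 of the 22 tRNAs. Of 809 other genes of 59 to 75 bp, 2 had any value above 0. Above that length the share with any value was 11.0% at 76 to 100 bp and 99.1% above 1000 bp. The zeros therefore cannot be told apart from those of other genes this short, and a level of 0 here says nothing of whether the tRNAs were present.

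**Figure D5:**
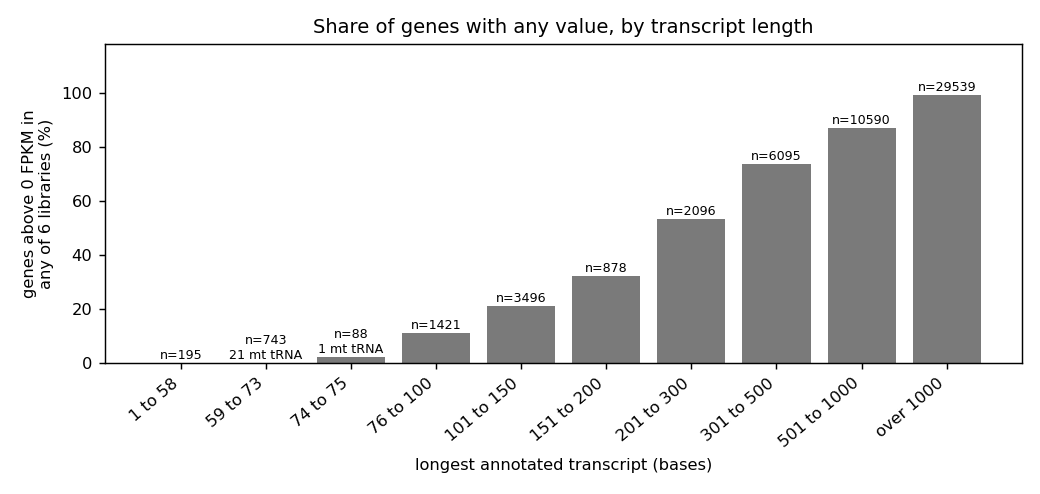
Share of genes (%) with more than 0 FPKM in any of the 6 libraries, by the length of their longest annotated transcript, with the number of genes above each bar. No gene shorter than 74 bp has a value, and 21 of the 22 mitochondrial tRNAs fall in that range.

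None of the listed nuclear genes that copy, transcribe, process and translate this genome passed the test in either direction. Over all genes tested, 0.159% were called higher and 0.108% lower, so a count of 0 does not set apart any of the lists below. Of 17 tested genes of mitochondrial transcription and replication 0 were called, the median log2 difference was -0.15 and 15 were below 0, beside 56.9% of all genes. Polrmt, the mitochondrial RNA polymerase, averaged 22.3 ± 4.02 and 17.0 ± 1.87 FPKM (SD, n = 3 each; log2 difference -0.37, limma adjusted p = 0.267), and Twnk, the replicative helicase, 17.8 and 14.9 FPKM. Ssbp1, which coats single-stranded mitochondrial DNA, averaged 89.5 and 104 FPKM. Mterf4, which acts with an rRNA methyltransferase in ribosome assembly, averaged 12.1 and 8.44 FPKM. At an unadjusted p under 0.05, 2 genes of this list stood lower and 0 higher, beside 9.72% and 6.5% of all genes.

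Of 27 genes of mitochondrial RNA processing and stability 0 were called and the median was -0.0051, but both genes with the smallest p belong to the FASTK family of mitochondrial RNA-binding proteins. Fastk, whose mitochondrial form is known to be needed for the mt-Nd6 messenger, stood at 46.7, 53.0 and 50.0 FPKM across the controls, against 31.2, 33.6 and 35.3 FPKM across the Emp1-deficient libraries. These did not overlap (log2 difference -0.57, SE 0.10, limma adjusted p = 0.0670), and the adjusted p passed under 3 alternatives, at 0.0395 with genes of at least 5 FPKM, 0.0496 with array weights and 0.0319 with longer protein-coding genes, within a range up to 0.245. Fastkd3 averaged 11.6 ± 1.34 and 6.82 ± 0.393 FPKM (SD, n = 3 each), also without overlap (-0.68, SE 0.14, limma adjusted p = 0.0879), and its adjusted p was 0.0448 among longer protein-coding genes. Ptcd1, a pentatricopeptide protein that binds mitochondrial RNA, averaged 14.3 and 10.5 FPKM, and Hsd17b10, a subunit of mitochondrial RNase P, 149 and 184 FPKM. At an unadjusted p under 0.05, 2 of the 27 stood higher and 3 lower, near the shares of 6.5% and 9.72% over all genes.

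The translation side was mixed. Of 12 translation factors 0 were called, 3 stood lower and 0 higher with p under 0.05 before adjustment, beside 9.72% and 6.5% of all genes, and the median was -0.12. Listed by the smallest p were Tufm, the elongation factor Tu, at 62.4 ± 0.539 and 48.4 ± 6.17 FPKM (SD, n = 3 each; log2 difference -0.37, limma adjusted p = 0.159), the release factor Mtrf1l at 11.0 and 6.61 FPKM, the elongation factor Gfm1 at 21.7 and 16.3 FPKM and the initiation factor Mtif3 at 11.7 and 8.38 FPKM. Of 78 genes of mitochondrial ribosomal proteins 0 were called, while 56 had a difference above 0, beside 43.1% of all genes, and the median was 0.082. At an unadjusted p under 0.05 the counts were 11 above the controls and 3 below, beside 6.5% and 9.72% of all genes. Mrps18c averaged 66.8 and 88.1 FPKM, Mrpl21 51.6 and 63.5 FPKM, Mrpl42 140 and 178 FPKM and Mrpl54 149 and 192 FPKM.

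Among markers of mitochondrial mass, no gene passed the test in either direction, where 0.159% of all genes were called higher and 0.108% lower. Of 15 tested 0 were called, 1 stood higher and 2 lower with p under 0.05 before adjustment, beside 6.5% and 9.72% of all genes, the median was -0.016 and 10 were below 0, beside 56.9%. Vdac1, the channel of the outer membrane, averaged 107 ± 5.38 and 81.8 ± 11.2 FPKM (SD, n = 3 each; log2 difference -0.39, limma adjusted p = 0.164), and Cs, the citrate synthase of the matrix, 78.5 and 66.3 FPKM. Timm23, of the inner membrane import channel, averaged 161 and 211 FPKM and Phb, a prohibitin of the inner membrane, 109 and 140 FPKM. Of 10 biogenesis regulators listed, 8 were tested and 0 were called. Before adjustment 0 of these regulators had p under 0.05, beside 6.5% of all genes higher and 9.72% lower, and their median was -0.11. Among them the transcription factors Yy1 (7.71 and 9.74 FPKM), Gabpb1 (57.4 and 65.6 FPKM), Esrra (5.14 and 4.03 FPKM) and Myc (370 and 284 FPKM) had the smallest p. Of 16 quality control genes 0 were called, 3 stood higher and 1 lower with p under 0.05 before adjustment, beside 6.5% and 9.72% of all genes, and the median was 0.14. The protease Yme1l1 averaged 39.7 and 48.4 FPKM, the mitophagy receptor Bnip3l 133 and 156 FPKM, the chaperone subunit Clpx 30.5 and 37.2 FPKM and the fusion protein Mfn2 21.5 and 17.6 FPKM.

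Markers of other cell types were present at low to moderate levels in both genotypes, and none of the lists had a member at 0 throughout. The summed level of the 8 T and NK cell genes was 195 to 263 FPKM in controls and 267 to 376 FPKM in Emp1-deficient libraries, nearly all of it Nkg7 (187 to 258 and 263 to 372 FPKM), while Cd3e was at 0.26 to 1.42 FPKM in all libraries and 2 of the 8 averaged at least 1 FPKM. Of the 8 monocyte and macrophage genes, 7 had a log2 difference below 0, beside 56.9% of all genes, the median was -0.68, and 3 stood lower with p under 0.05 before adjustment, beside 9.72%. Irf8 was at 13.9, 18.2 and 11.1 FPKM across the controls, against 7.15, 5.94 and 5.66 FPKM across the Emp1-deficient libraries (log2 difference -1.07, SE 0.19, limma adjusted p = 0.0661), and Csf1r at 7.72, 6.92 and 11.7 FPKM, against 5.15, 4.03 and 2.24 FPKM (limma adjusted p = 0.124). Both were chosen for naming with their values known, and the genotypes did not overlap for either. The summed level of the list, mostly Lyz2, was 362 to 395 and 313 to 380 FPKM and did overlap. The part of either list's cells in the mitochondrial share was not tested. The other lists overlapped between genotypes in their summed level, with neutrophil genes led by Prtn3 at 592 to 754 and 563 to 954 FPKM, erythroid genes led by Car1 at 115 to 256 and 99.7 to 226 FPKM, megakaryocyte genes led by Pf4 at 637 to 827 and 542 to 900.3 FPKM, B cell genes led by Xbp1 at 169 to 204 and 169 to 250 FPKM, and endothelial genes led by Egfl7 at 179 to 223 and 200.2 to 217 FPKM. Within the megakaryocyte list, 1 of 6 genes stood higher without overlap, beside 8.91% of all genes. Its log2 difference was 0.88 (limma adjusted p = 0.0796), and the other 5 were below 0, beside 56.9%.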

How the data were processed

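The values were the authors' deposited FPKM, with 2 decimals, for 55401 Ensembl identifiers in 6 libraries. Geo-seq amplification of reverse-transcribed messenger RNA preceded a transposase library kit, per the labels' protocols. The submitters' processing notes list Cufflinks 2.1.1, Bowtie 0.12.9, DESeq2 and HTSeq, with mm10 as the build. Their roles, and how reads that map to several places were handled, are not given in the sources used here. A value in FPKM is relative to each library's total, so a larger share of some transcripts lowers all others. Symbols, positions and sequences came from GENCODE M21, which matched 55141 identifiers.

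The 15723 genes that reached 1 FPKM in 3 or more libraries were fitted as log2(FPKM + 1) by limma 3.58.1 (R 4.3.3, trend and robust options, two-sided tests). Genotype was the only term, and p-values were adjusted over all of them by Benjamini and Hochberg's method. Fold changes on this scale understate those of low genes. The limma fit was tested on simulated data with independent noise for each gene, which does not cover genes that vary together. Nuclear copies were found with blastn 2.17.0 (at least 95% identity over at least 100 bases), and those above 99% on chromosome 1 were added to their mitochondrial gene by fragments, scaled by effective length. Depth was read from the smallest steps of single-exon genes of 400 to 1500 bp, of which 83.0% to 88.7% lay within 0.15 of a whole number of fragments. By those steps 1 fragment on a gene of 1000 bp was worth 0.0520 to 0.122 FPKM. mt-Rnr1, the member above 600 bp with the fewest, held 1157 to 2517 fragments. mt-Nd3 held 19.5 to 501, extrapolated to a shorter length than those steps cover.

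Whether the replicates are separate mice is not stated in the labels, so the spread behind each p-value may be technical. Named were all members, the nuclear copies, Emp1, up to 4 genes of each nuclear list with the smallest p and up to 3 of each marker list with the highest mean, of which part are printed. The members and lists were chosen with earlier results of these data known.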

Additional observations from a re-analysis of the deposited data

How the results depend on the processing

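The count of mitochondrial protein-coding genes called was 1 (mt-Cytb) when testing was limited to protein-coding genes of 400 bp or more, and 0 under every other setting run. The count over the nuclear lists was 1 with genes of at least 5 FPKM (Fastk), 1 with array weights (Fastk) and 2 with longer protein-coding genes (Fastk and Fastkd3). By FPKM times length, the share of the 13 genes differed by 0.378 percentage points in place of 1.65. The log2 difference of mt-Co1 was -0.19 after quantile normalization. That of mt-Nd3 was -0.0084 with a pseudocount of 0.1, -0.048 as TPM, -0.021 scaled to nuclear genes, -0.080 after quantile normalization and -0.18 with array weights. The cause was not tested. Leaving out each library in turn gave -0.62 to 1.18 for mt-Nd3, -0.10 to 0.35 for mt-Nd4l, -0.24 to 0.036 for mt-Rnr1, -0.30 to 0.096 for Gm28438, 0.26 to 0.46 for the median of the 13 genes, and 1.15 to 1.97 percentage points for their share. The genes called over the whole table, 25 higher and 17 lower, numbered 70 and 142 among longer protein-coding genes, 49 and 64 at 5 FPKM, 37 and 45 with array weights, 14 and 15 for a pseudocount of 0.1, 6 and 9 for 5, 11 and 13 as TPM, 11 and 11 scaled to nuclear genes, 15 and 9 after quantile normalization, 16 and 9 with upper quartile scaling, 2 and 3 without the filter, and 5 and 3 without trend or robust. With a replicate block, 0 mitochondrial genes were called, and 6 higher and 2 lower over all genes. Libraries of different genotype correlated at 0.948 to 0.962. After each gene's genotype mean was subtracted, the deviations of same-numbered samples correlated at -0.11, 0.086 and -0.052. The numbers were therefore not taken to pair the samples. No tRNA gene could be fitted under any setting. The smallest fragment number estimated, 19.5 for mt-Nd3 in Emp1-deficient replicate 2, came with 96.1% of that pair in Gm28438.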
